A study of Mus musculus with 4 samples.

Results

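The 8 mouse genes described here act in the unfolded protein response and in quality control inside the endoplasmic reticulum (ER): Xbp1, Bhlha15, Edem2, Sel1l, Hspa5, Txndc5, Uggt1 and Ganab. They were found by the NCBI gene number in the array's probe identifiers, which gave 9 probes (2 for Bhlha15, 1 for each other gene) among 46120. A gene name was available for 8137 genes on the array, of which the 2711 detected on 1 or more arrays were tested, all 8 of these genes among them. RNA from sorted spleen cells of C57BL/6 mice was measured on 4 single-colour Illumina arrays. All cells carried the reporter genotype written prmd1-gfp in the labels, in which green fluorescent protein reports Blimp1, a transcription factor that drives plasma cell differentiation. Naive follicular B cells, sorted as B220+ IgD+, fill 1 array. Plasma cells were CD138+ and were split by reporter level into Blimp1 high (Blimp1-hi, 1 array) and Blimp1 intermediate (Blimp1-int, 2 arrays), and came from pools of 5 to 10 animals. The cells were taken straight from the animal without culture or treatment, and the labels give no age or sex. The labels' source field calls the plasma cell arrays follicular B cells, against their titles and sort, which the grouping follows.

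When unfolded proteins accumulate in the ER, the sensor IRE1 splices Xbp1 mRNA so that it encodes an active transcription factor, which induces chaperones, folding enzymes and degradation factors. A plasma cell secretes antibody at a high rate, and XBP1 is known to be needed for the enlarged ER that this takes. Newly made glycoproteins pass through a folding cycle run by glucosidase II and UGGT1. Those that fail to fold are marked by mannose trimming and sent out of the ER to the proteasome, a route called ER-associated degradation (ERAD).

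The known binding elements of this response are short and can be searched for in promoter sequence, which is shown for the genes whose levels differed most and for the chaperone gene that is the usual example. The windows are those of RefSeq (build GRCm38.p6), from 250 bases before to 50 after a start site. All 8 genes had at least 1 window and Txndc5 had 3, so that 10 windows were searched on both strands. The ER stress response element (ERSE, CCAAT and, after a gap of 9 bases, CCACG) was found in 1 of them, that of Hspa5, and in 0.119% of all 32851 mouse windows. The unfolded protein response element (UPRE, letters TGACGTGG) was found in 1, a Txndc5 window, and in 0.676% of all windows. That window belongs to a start site inside the annotated gene (chr13:38500266-38528824), not to its outermost start. The shorter ACGTG core, which lies inside the UPRE, was found in 6 of the 10 windows (of Hspa5, Edem2, Bhlha15, Ganab and, in 2 windows, Txndc5) and in 19.6% of all. ERSE-II (ATTGG and, after 1 base, CCACG) was in none of the 10 and in 0.0365% of all windows. A match describes the letters and is no evidence of binding. In the stretches below, written 5′ to 3′ on the gene's own strand, capitals mark the ERSE match in Hspa5, the UPRE match in Txndc5 and the ACGTG core, read on the opposite strand, in Edem2. The Hspa5 stretch also holds ACGTG, left in lower case, and the Xbp1 stretch has no match to these 4 motifs.
Hspa5 (chr2:34771840-34772089, plus strand): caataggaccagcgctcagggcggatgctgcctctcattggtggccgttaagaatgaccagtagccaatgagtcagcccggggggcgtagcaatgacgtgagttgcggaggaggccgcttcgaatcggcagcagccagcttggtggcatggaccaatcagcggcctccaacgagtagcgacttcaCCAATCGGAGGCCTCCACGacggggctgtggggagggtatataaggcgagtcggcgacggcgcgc
Txndc5 (chr13:38528034-38528063, minus strand): ggcctcgccgcTGACGTGGcgctagccgcc
Edem2 (chr2:155729476-155729725, minus strand): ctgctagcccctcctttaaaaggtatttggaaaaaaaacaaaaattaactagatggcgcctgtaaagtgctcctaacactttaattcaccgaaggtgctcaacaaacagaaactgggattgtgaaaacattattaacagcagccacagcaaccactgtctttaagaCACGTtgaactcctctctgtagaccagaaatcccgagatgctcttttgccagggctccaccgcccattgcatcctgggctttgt
Xbp1 (chr11:5520391-5520640, plus strand): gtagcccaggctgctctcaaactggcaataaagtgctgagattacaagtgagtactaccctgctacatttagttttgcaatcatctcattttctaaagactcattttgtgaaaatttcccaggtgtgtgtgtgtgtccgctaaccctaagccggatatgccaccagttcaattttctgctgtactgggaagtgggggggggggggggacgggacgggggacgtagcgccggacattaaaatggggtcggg

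Levels are given as deposited, in log2 units, and all 4 arrays have nearly the same distribution of values, so that a level is relative to the other transcripts of its array. The sources used here do not say whether the scale was variance-stabilized, and folds of dim genes can be understated. A probe counted as above background where it exceeded the mean plus 3 standard deviations of 42 probes for bacterial, phage, plant and spike-in sequences on that array, a cutoff between 8.63 and 8.68, which 6483 to 7255 probes exceeded. Differences were tested with limma over all 2711 genes, and a gene was called where the Benjamini-Hochberg adjusted p was under 0.05 and the difference at least 1 (2-fold). Naive cells and Blimp1-hi cells have 1 array each, so that every standard error (SE) rests on the Blimp1-int pair, and nothing in the labels says that this pair came from separate animals. The p-values therefore rest on the spread of this pair alone, and that spread may be technical. The reporter transcript eGFP lay at 8.29 on the naive array, 11.23 on the Blimp1-hi array, and 10.55 and 10.82 on the Blimp1-int pair, and Sdc1, the gene of CD138, went from 8.24 to 9.55, 9.21 and 9.36, so both followed the sort. Of 6 tested naive B cell markers 4 were called lower in each plasma cell population. None of the 5 T and NK cell or 7 granulocyte markers with a probe was above background on any array. In such bulk samples fewer cells of a type and less RNA per cell cannot be told apart.

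Xbp1 was among the genes with the largest rise on the array in both plasma cell populations, and Bhlha15, which encodes MIST1, a transcription factor of secretory cells, rose with it. The Xbp1 probe read 10.65 on the naive array, 14.39 on the Blimp1-hi array, and 14.81 and 14.79 on the Blimp1-int pair. It rose by 3.74 in Blimp1-hi (SE 0.12, 13.4-fold, limma adjusted p = 2.49e-10) and by 4.15 in Blimp1-int (SE 0.10, 17.8-fold, limma adjusted p = 1.55e-11). The Blimp1-int rise was 3.50 (11.3-fold) after cyclic loess normalization, a fold 1.58 times smaller. By fitted difference, which is not exact for genes below background in naive cells, 4 of the 2711 tested genes had a larger rise in Blimp1-hi and 2 in Blimp1-int. By rank, its probe went from the 859th brightest of the naive array to the 49th on the Blimp1-hi array and the 28th and 29th on the Blimp1-int pair. The sources used here do not say whether the probe reads the spliced form of Xbp1 mRNA, the unspliced form or both.

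Bhlha15 was below background in naive cells (8.17) and reached 10.63 on the Blimp1-hi array and 10.88 and 10.75 on the Blimp1-int pair. All 3 plasma cell arrays thus lay well above the naive array and close together. Against the lowest signal above background the increase was at least 4.0-fold in the Blimp1-hi array and at least 4.55-fold in the Blimp1-int pair. The tested differences, which use the naive value as deposited, were 2.46 and 2.64 (limma adjusted p = 8.30e-09 and 8.79e-10). Its second probe stayed below background on every array, between 8.45 and 8.48. The Bhlha15 result thus rests on 1 of its 2 probes.

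**Figure D1:**
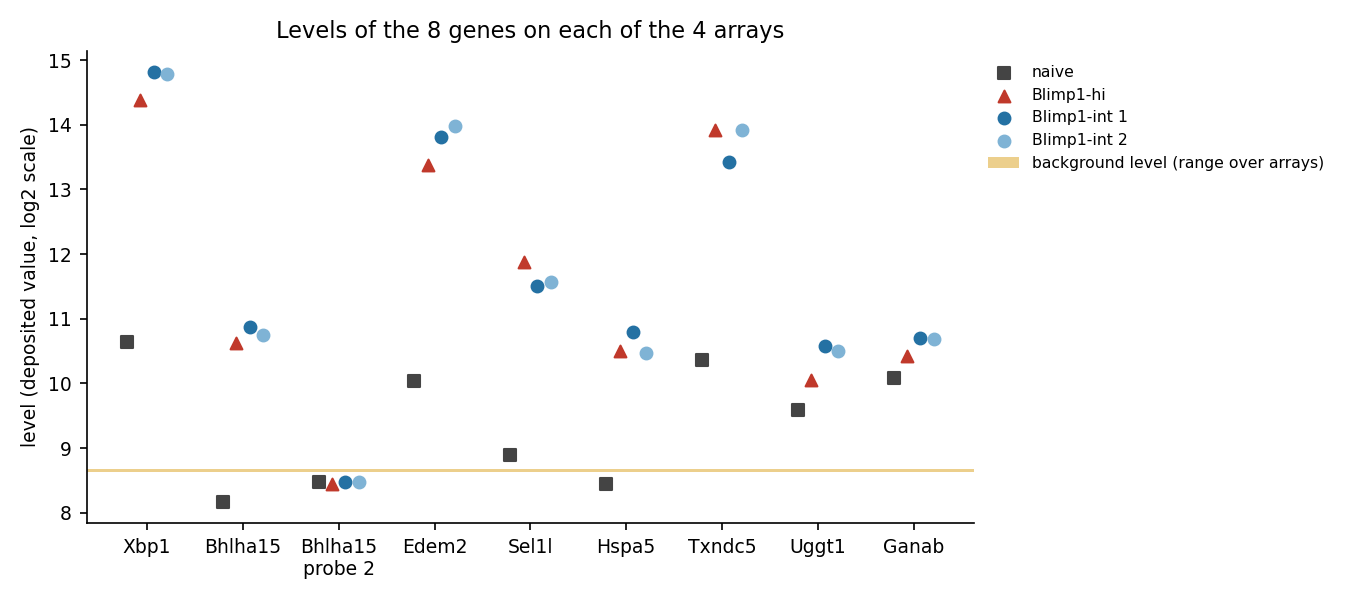
Level of each probe (deposited value, log2 scale) of the 8 genes on the naive array (square), the Blimp1-hi array (triangle) and both Blimp1-int arrays (circles), with the background level as a band from 8.63 to 8.68. The naive square lies under the plasma cell points for all 8 genes, while the second Bhlha15 probe lies under the band on all arrays.

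The ERAD genes Edem2 and Sel1l both rose. Edem2, a member of the family that trims mannose from misfolded glycoproteins and so marks them for disposal, read 10.04 on the naive array, 13.37 on the Blimp1-hi array, and 13.81 and 13.99 on the Blimp1-int pair. Its rise was 3.33 in Blimp1-hi (SE 0.13, 10.1-fold, limma adjusted p = 1.37e-09) and 3.85 in Blimp1-int (SE 0.11, 14.5-fold, limma adjusted p = 6.97e-11). Both Blimp1-int arrays were above the Blimp1-hi array. Sel1l, the adaptor that brings substrates to the ubiquitin ligase HRD1 in the ER membrane, showed the other order among the plasma cells, at 8.90 on the naive array, 11.88 on the Blimp1-hi array, and 11.50 and 11.56 on the Blimp1-int pair. It rose by 2.98 in Blimp1-hi (SE 0.12, 7.87-fold, limma adjusted p = 1.73e-09) and by 2.63 in Blimp1-int (SE 0.10, 6.20-fold, limma adjusted p = 7.77e-10). In rank the Sel1l probe moved from 4607th in naive cells to between 358th and 459th in plasma cells.

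The folding genes Hspa5 and Txndc5 rose as well, and were those of the 8 on which the Blimp1-int replicates differed most. Hspa5 encodes BiP, the HSP70 chaperone of the ER lumen, which binds unfolded chains and also holds the stress sensors inactive. It was below background in naive cells (8.45) and read 10.50 on the Blimp1-hi array and 10.79 and 10.47 on the Blimp1-int pair. The increase was at least 3.65-fold in Blimp1-hi and at least 4.0-fold in Blimp1-int. The tested differences, with the naive value as deposited, were 2.05 and 2.18 (limma adjusted p = 2.94e-07 and 3.15e-08). The Blimp1-hi value lay between the Blimp1-int replicates. Txndc5, a protein disulfide isomerase of the ER, read 10.36 on the naive array, 13.93 on the Blimp1-hi array, and 13.43 and 13.92 on the Blimp1-int pair, so that Blimp1-hi was above both but close to the second. Its rise was 3.56 in Blimp1-hi (SE 0.18, 11.8-fold, limma adjusted p = 1.01e-08) and 3.31 in Blimp1-int (SE 0.16, 9.91-fold, limma adjusted p = 4.10e-09). The gap between the Blimp1-int replicates was 0.49 for Txndc5 and 0.32 for Hspa5, against a median of 0.08 over all tested genes, and 0.848% and 3.36% of genes had a wider gap. For Xbp1 and Ganab the gap was 0.03 and 0.01.

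The enzymes of the glycoprotein folding cycle moved least. Ganab encodes the catalytic subunit of glucosidase II, which removes glucose from the glycan, and Uggt1 encodes the folding sensor that puts glucose back on glycoproteins that are not yet folded. Uggt1 read 9.59 on the naive array, 10.06 on the Blimp1-hi array, and 10.58 and 10.50 on the Blimp1-int pair, a difference of 0.47 in Blimp1-hi (95% interval 0.21 to 0.73, limma adjusted p = 0.00607) and of 0.95 in Blimp1-int (0.72 to 1.18, limma adjusted p = 7.65e-06). Ganab read 10.08 on the naive array, 10.43 on the Blimp1-hi array, and 10.70 and 10.69 on the Blimp1-int pair, a difference of 0.35 in Blimp1-hi (0.10 to 0.61, limma adjusted p = 0.0250) and of 0.62 in Blimp1-int (0.39 to 0.84, limma adjusted p = 0.000235). All 3 plasma cell values of both genes were above the naive value, and both genes passed the adjusted p but not the 2-fold threshold, so that neither was called. For Uggt1 in Blimp1-int this lay at the threshold, and its difference was 1.01, and called, when the arrays were normalized again without the immunoglobulin probes.

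**Figure D2:**
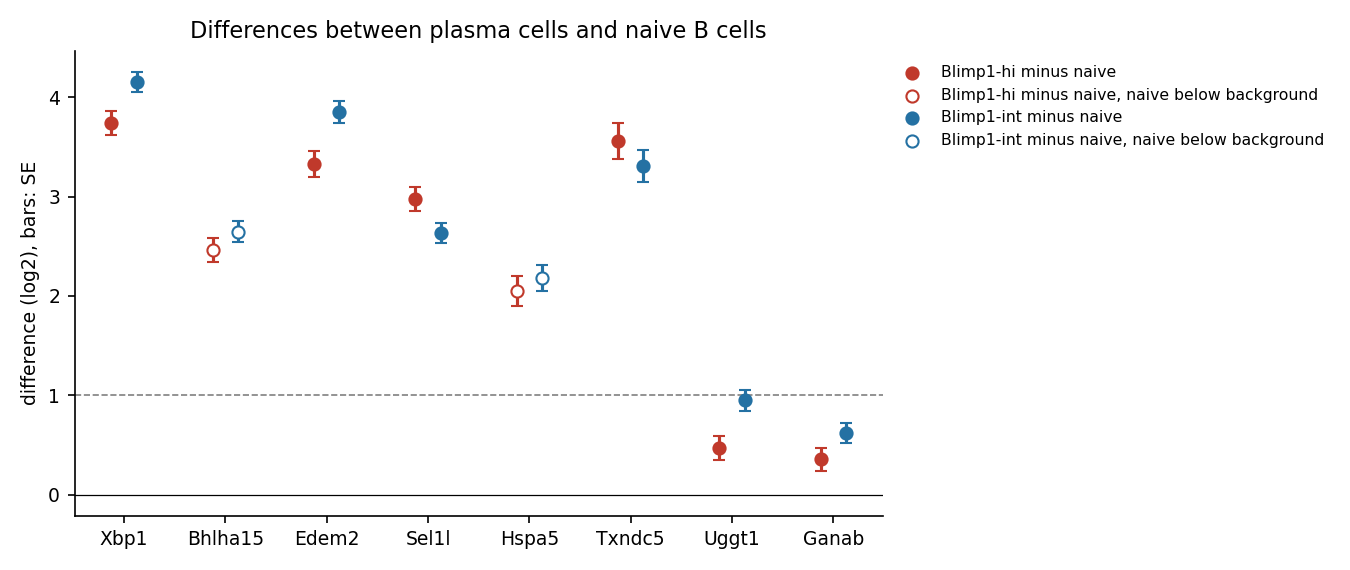
Difference from the naive array (log2, bars are SE from limma) for Blimp1-hi in red and Blimp1-int in blue, with open points where the naive value was below background and a dashed line at the 2-fold threshold. Xbp1, Edem2, Sel1l, Txndc5, Bhlha15 and Hspa5 lie above the line in both populations, and Uggt1 and Ganab between 0.35 and 0.95.

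In all, 6 of the 8 genes were called higher and 0 lower in each plasma cell population. Bhlha15 and Hspa5 entered the test through the plasma cell arrays alone. Where all 4 arrays had to exceed background, 4 were called in each population. The 8 genes were chosen with earlier results of these data known, so the shares given next are for scale and are no test of the 8. Of all 2711 genes 4.35% passed as higher and 7.49% as lower in Blimp1-hi (11.8% in all), and 5.79% and 5.61% in Blimp1-int (11.4% in all). By adjusted p alone all 8 were higher in both. The shares of all genes by that rule were 21.5% higher and 29.8% lower in Blimp1-hi (51.3% in all) and 27.5% and 29.0% in Blimp1-int (56.5% in all). The median fitted difference of the 8 was 2.72 in Blimp1-hi and 2.64 in Blimp1-int. It was 2.49 and 2.41 with Bhlha15 and Hspa5, below background in naive cells, at their bounds. The median fitted difference of all tested genes was -0.06 and 0.01. Both comparisons use the same naive array, so that an error in that array enters both.

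Between the plasma cell populations the fitted differences of the 8 genes were below 2-fold, and in both directions. The comparison asked how plasma cells with more and with less of the Blimp1 reporter differ. The median difference of the 8 was -0.22, against -0.06 over all tested genes (quartiles -0.19 and 0.06). Of the 2711 genes 93 had a lower difference than Edem2, the lowest of the 8, and 90 a higher one than Sel1l, the highest. No gene of the 8 was called in Blimp1-hi against Blimp1-int, where 0.664% of all genes were called (0.258% higher and 0.406% lower). By adjusted p alone 1 of the 8 was higher and 3 lower, against 2.95% and 9.7% of all genes (12.7% in all). Edem2 was lower in Blimp1-hi by 1.44-fold (difference -0.52, 95% interval -0.77 to -0.28, limma adjusted p = 0.00890), Uggt1 by 1.39-fold (-0.48, -0.71 to -0.25, limma adjusted p = 0.00961) and Xbp1 by 1.33-fold (-0.41, -0.64 to -0.19, limma adjusted p = 0.0193). Sel1l was 1.27-fold higher in Blimp1-hi (0.34, 0.12 to 0.57, limma adjusted p = 0.0469). For each of these 4 the Blimp1-hi value lay outside the Blimp1-int pair. The same was true of Ganab, Bhlha15 and, narrowly, Txndc5, so this does not set the 4 apart.

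The other 4 did not pass the adjusted p. The differences were -0.26 for Ganab (95% interval -0.49 to -0.04, limma adjusted p = 0.113), -0.18 for Bhlha15 (-0.42 to 0.05, limma adjusted p = 0.295), -0.13 for Hspa5 (-0.41 to 0.15, limma adjusted p = 0.566) and 0.25 for Txndc5 (-0.09 to 0.60, limma adjusted p = 0.342). All of these intervals lie within 2-fold, but their width comes from the Blimp1-int pair and Blimp1-hi has 1 array. They therefore cannot exclude a 2-fold difference between the populations. The Txndc5 difference of 0.63 under another normalization, given below, lies outside its interval. The outcome moved with the normalization. With the immunoglobulin probes left out of the normalization the difference was -0.09 for Xbp1 (limma adjusted p = 0.611) and -0.13 for Edem2 (0.536), while those of Uggt1 (-0.46, 0.0251) and Sel1l (0.55, 0.00986) still passed and that of Txndc5 now did (0.63, 0.0438). With cyclic loess Xbp1 also did not pass (-0.26, limma adjusted p = 0.196) and Txndc5 also did (0.39, 0.0257). The Txndc5 difference rests on the choice of Blimp1-int array, being 0.0081 without replicate 1 and 0.50 without replicate 2, both without a test. Over the 9 settings with a test, the adjusted p of Uggt1 passed in 9, of Edem2 in 8, of Sel1l in 7, of Xbp1 in 6, of Txndc5 in 2 and of Ganab in 0, and over 8 settings those of Bhlha15 and Hspa5 in 0. These settings are not independent checks. Only cyclic loess and the normalization without immunoglobulin probes visibly changed the differences themselves. Uggt1, Sel1l and Txndc5 passed under both, Edem2 under cyclic loess alone and Xbp1 under neither. Of 10 macrophage and dendritic cell markers with a probe, 7 were below background on every array, and Apoe alone was called between the plasma cell populations. Apoe lay at 9.91 in Blimp1-hi against a mean of 8.86 in Blimp1-int, and at 9.22 in naive cells. Vcam1 went the other way (difference -0.25), but it was above background on Blimp1-int replicate 2 alone (8.99, against 8.44 on replicate 1). Mertk differed by 0.05. The summed level of the 10 markers lay at 11.93 in Blimp1-hi and at 11.72 and 11.86 in Blimp1-int (log2). The part of these markers in the result was not tested.

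**Figure D3:**
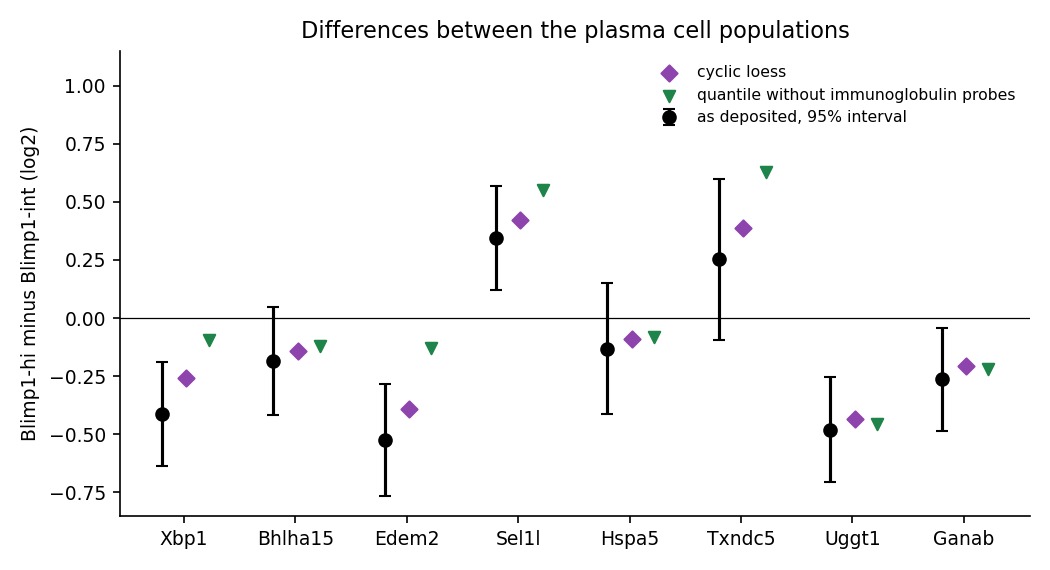
Blimp1-hi minus Blimp1-int (log2) for each gene with the deposited normalization (black, bars are 95% intervals from limma), after cyclic loess (purple diamonds) and after quantile normalization without immunoglobulin probes (green triangles). Uggt1 stays between -0.48 and -0.44 in these 3 settings, while Xbp1 and Edem2 move towards 0.

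Other genes of the same pathways were taken from 6 lists, of which most members have no named probe or were below background on all arrays. Of 36 tested genes on the lists, 28 are not among the 8, and of these 4 were called higher and 0 lower in each plasma cell population, with a median fitted difference of 0.30 in Blimp1-hi and 0.35 in Blimp1-int, or 0.16 and 0.21 with genes below background in a group at their bound, or at 0 where there is none. The 4 were Fkbp2, Sec63, Selenok and Vcp in both. By adjusted p alone, 14 of the 28 were higher and 2 lower in Blimp1-hi, and 16 higher and 2 lower in Blimp1-int.

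Among stress sensors and transcription factors 4 of 23 were tested, and Xbp1 and Bhlha15 were the called ones. Ern1, which encodes IRE1, was below background on all arrays. Ppp1r15b, a subunit of the phosphatase that reverses the translation block of the stress response, read 8.49 on the naive array, 8.60 on the Blimp1-hi array, and 8.91 and 8.88 on the Blimp1-int pair, and Mbtps2, a protease that activates ATF6, lay within 8.50 to 8.65 on all 4 arrays, near background. Neither was called. The chaperone list had 8 of 30 tested, with 3 called higher in each population. Without Hspa5 it was 2 of 7. Fkbp2, a prolyl isomerase of the ER, read 9.26 on the naive array, 11.55 on the Blimp1-hi array, and 10.94 and 11.01 on the Blimp1-int pair (differences 2.29 and 1.72). Sec63, the translocon partner that recruits BiP, read 9.70, 10.88, and 11.23 and 11.35 in the same order (differences 1.18 and 1.59). The torsins Tor1a and Tor1b were below background in naive cells and differed by at least 1.24-fold and at least 1.20-fold in the Blimp1-hi array, with no call.

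In the ERAD list 10 of 36 were tested and 4 called higher, Edem2, Sel1l, Selenok and Vcp, with none lower. Without Edem2 and Sel1l it was 2 of 8. Vcp, the ATPase that pulls substrates out of the ER membrane, went from 11.09 in naive cells to 12.46 on the Blimp1-hi array and 12.64 and 12.73 on the Blimp1-int pair (differences 1.38 and 1.60). Selenok, a selenoprotein of the ER membrane, went from 9.36 to 11.34 on the Blimp1-hi array and 11.38 and 11.52 on the Blimp1-int pair (1.98 and 2.09). The ubiquitin ligase Rnf185 was not called, with differences of 0.34 and 0.50 (limma adjusted p = 0.0311 and 0.00115). Of 26 disulfide isomerases and oxidases 5 were tested, and Txndc5 alone was called. Erp29, an ER folding factor, read 12.35 on the naive array, 12.09 on the Blimp1-hi array, and 13.04 and 12.85 on the Blimp1-int pair. Its difference between the plasma cell populations of -0.86 (SE 0.11, limma adjusted p = 0.000555) was below 2-fold, and the naive value lay between them. Ero1b, the oxidase that recharges disulfide isomerases, differed by -0.23 and -0.13 from naive cells.

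No gene was called on the lists of the folding cycle (3 of 13 tested) or of N-glycan assembly (6 of 33 tested). Tmem258 and Dad1, both subunits of the oligosaccharyltransferase that attaches the glycan, are on the second. Tmem258 differed from naive cells by 0.15 in Blimp1-hi and 0.38 in Blimp1-int. Dad1 differed by -0.13 in both. Of the genes on these lists, Ero1b had an ERSE match and Vcp a UPRE match in a promoter window, beside Hspa5 and Txndc5 whose stretches are printed above. Of these 4 genes Vcp, Hspa5 and Txndc5 were called, and Ero1b was not. Hspa5 and Txndc5 were chosen with earlier results of these data known. A window was available for 29 of the 36 tested list genes, and genes without a window could not show a match. The 10 of 36 called in each population are therefore no base for the matched genes. The called genes Xbp1, Bhlha15, Edem2, Sel1l and Sec63 had windows with neither an ERSE nor a UPRE match. No window result is given here for the called genes Fkbp2 and Selenok. A link between match and call was not tested.

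**Figure D4:**
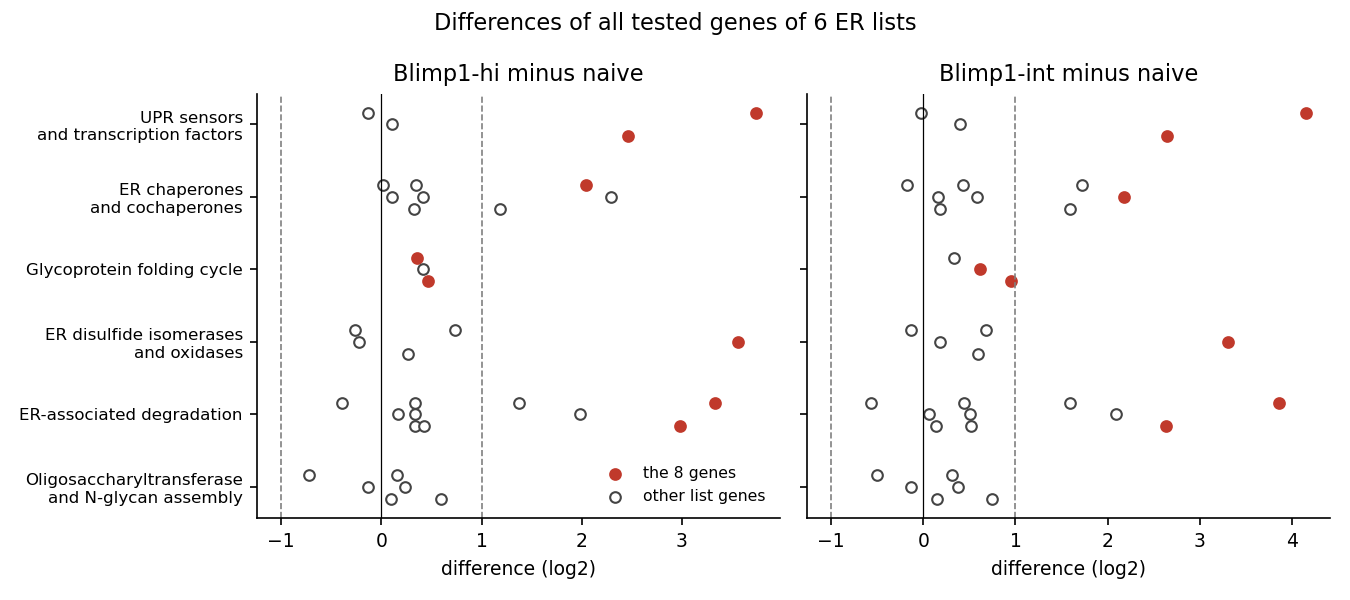
Differences from naive cells (log2) of every tested gene on 6 ER lists, 1 list per row, for Blimp1-hi (left) and Blimp1-int (right), with the 8 genes in red and dashed lines at 2-fold in either direction. The 4 open points beyond the line at 1 are Fkbp2, Sec63, Selenok and Vcp in both panels.

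The tested genes whose values minus the naive value on the 3 plasma cell arrays lay nearest to those of Xbp1, by Euclidean distance, were Ighg1 (0.552), Edem2 (0.605) and Chst1 (0.911). Nearest to Edem2 were Ighg1 (0.428), Xbp1 (0.605) and Ssr4 (0.832). Ighg1 is the constant region of an antibody heavy chain, Chst1 a sulfotransferase of the Golgi and Ssr4 a subunit of the translocon-associated complex. Ighg1 (8.14) and Chst1 (8.43) were below background on the naive array, so that their distances are not exact. The first place of Ighg1 in both orders rests on that value and is not settled. Among genes above background on the naive array, Edem2 lay nearest to Xbp1 and Xbp1 nearest to Edem2. Among the 8 genes Uggt1 and Ganab lay 0.486 from each other. The nearest of the other 6 to either was Hspa5, 2.35 from Uggt1, or 2.05 with its naive value, which is below background, raised to the lowest signal above it.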

How the data were processed

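Gene expression was measured on 4 single-colour Illumina arrays (1 naive, 1 Blimp1-hi, 2 Blimp1-int). The authors deposited 1 table of normalized log2 values, which per the submitters' processing notes came from lumi, an R package for Illumina arrays. Its version and the background step are not recorded there. A second deposited table has 8 columns whose names match no sample, and none was used. Of 11897 probes with a gene number, 9832 matched RefSeq (GRCm38.p6, for names), and 18 more were named by accession or immunoglobulin region. Where a gene had several detected probes, the brightest by mean was taken; the mean of probes was an alternative. limma 3.58.1 (R 4.3.3) fitted 1 linear model with a mean per group, with two-sided moderated tests; the prior had 11.2 degrees of freedom beside 1 residual degree, and an SD of 0.0869. Before the 42 background probes were settled, many other sets of foreign probes were tried in an attempt to match the number of genes tested in an earlier analysis of these data. None matched it, and bacterial, phage, plant and spike-in probes were then kept, without vector probes since the mice carry a reporter cassette. A gene below background in 1 group has only a bound, written as at least N-fold. The number of arrays limits the precision. The steps were run on simulated data in which every array had the spread of the Blimp1-int pair. That cannot show whether the single naive and Blimp1-hi arrays spread alike. Alternatives were 75th percentile scaling, cyclic loess, quantile normalization without 307 immunoglobulin probes, the mean of probes, other filters, all probes as features, calls by adjusted p alone, and leaving out each Blimp1-int array. The 8 genes and the lists were chosen with earlier results of these data known. Named from each list were up to 4 called genes and the 2 uncalled ones with the highest mean per comparison, of which 1 item is not reported here; Ern1, and the statement on promoter matches of list genes, were added after values were seen.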

Additional observations from a re-analysis of the deposited data

How the results depend on the processing

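The 6 calls against naive cells held in both populations under every alternative that kept the gene. Bhlha15 and Hspa5, below background in naive cells, are not tested where all 4 arrays must exceed background, which leaves 4 of the 6. Most alternatives leave these differences as they are, so they are not independent checks. Visible changes came only from cyclic loess, the normalization without immunoglobulin probes and, in Blimp1-int, leaving out an array. The second Bhlha15 probe, below background, did not enter the mean of probes. Counts over all genes moved with the features and the threshold: 321, 309 and 18 calls (Blimp1-hi against naive, Blimp1-int against naive, Blimp1-hi against Blimp1-int) became 1158, 1121 and 118 with all probes above background as features and 1391, 1532 and 343 by adjusted p alone, which also took the 8 genes from 0 to 4 between the plasma cell populations. A background level that also used vector probes, chosen after seeing the data, changed no call among the 8. Normalization without immunoglobulin probes took the 8 genes from 6 to 7 calls in Blimp1-int against naive, Uggt1 being the one added (difference 1.01). No paired analysis was possible because only the Blimp1-int samples carry replicate numbers. Without either Blimp1-int array no residual degree of freedom is left, so those are values without a test; past 2-fold were then 321, 289 to 339 and 13 to 23 genes in the 3 comparisons, and the uncalled Hspa5 difference of -0.13 between plasma cell populations was 0.03 without replicate 1, while that of Txndc5 (0.25) was 0.0081 without replicate 1 and 0.50 without replicate 2. Of the differences of the 8 genes from naive cells, only the fold of Xbp1 in Blimp1-int moved by over 1.5 times (3.50 against 4.15, cyclic loess) under the alternatives run.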
